A study of Homo sapiens with 18 samples.

Results

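The genes described here are 10 regulators and effectors of the integrated stress response, taken by symbol from a table of 58870 genes: ATF4, ATF5, DDIT3, CEBPB, CEBPG, TRIB3, NUPR1, CHAC1, DDIT4 and PPP1R15A. ATF5 was included because it was higher with the NRF1 guide in all 3 base editors, and NUPR1 because its response differed between the editors. These measures of ATF5 and NUPR1 are therefore given as a description, without a test. All 10 members passed the filter on low counts, which kept 17743 genes. The integrated stress response starts when a kinase that senses a stress phosphorylates the translation factor eIF2. Most protein synthesis then slows, while mRNAs such as those of ATF4 and ATF5, whose upstream reading frames otherwise hold ribosomes back, are translated more. ATF4 protein drives the transcription of DDIT3 (the factor CHOP), TRIB3, CHAC1, DDIT4, NUPR1 and amino acid genes, and PPP1R15A (GADD34) closes the loop by guiding a phosphatase to eIF2.

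Polyadenylated RNA was measured in 6 groups of 3 libraries from HEK293T, a transformed line of human embryonic kidney. A base editor is a Cas9 nickase fused to a deaminase that rewrites single bases at the site its guide RNA names, here a splice site of NRF1 exon 7, so that the exon of this transcription factor of GC-rich promoters is skipped. The groups were SaABE with the NRF1 guide and SaABE with an intergenic guide (the nickase of Staphylococcus aureus carrying ABE8e, an adenine deaminase), SpABE with the NRF1 guide and SpABE with an intergenic guide (the Streptococcus pyogenes nickase carrying ABE8e), and SpCBE with the NRF1 guide and SpCBE with an intergenic guide (the same S. pyogenes protein carrying evoCDA1, a cytosine deaminase). All 6 groups share the plasmid transfection of 750000 cells, 48 h of puromycin and the harvest 72 h after transfection, so the intergenic controls also carried an active editor and the drug. SaABE differs from the other editors in nickase, plasmid and guides together, and each editor's NRF1 guide is a different one. Cells were transfected populations, and nothing in the labels says that replicates were separate cultures, and the p-values then reflect a spread between libraries that may be technical only.

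The guides are shown because they define the groups. Each had 1 exact match in hg38, and the 3 NRF1 guides straddled a border of exon 7 of NRF1 on chromosome 7, at chr7:129710560-129710579 (minus strand, 12 exonic bases) for SaABE, chr7:129710367-129710386 (plus strand, 13 exonic bases) for SpABE and chr7:129710359-129710378 (minus strand, 5 exonic bases) for SpCBE. The intergenic guides matched chr10:131349102-131349121 (minus strand, SaABE) and chr13:102967577-102967596 (plus strand, shared by SpABE and SpCBE), where the annotation holds no gene. The bases after the match fitted the usual PAM, the short motif that Cas9 requires, for 4 of the 5 guides, all but the SaABE NRF1 guide.
SaABE NRF1 guide: ttactcacctggataagtga
SpABE NRF1 guide: gtgacaggtttcatggaccc
SpCBE NRF1 guide: gaaacctgtcaccaaatgac
SaABE intergenic guide: ccattatcgtgacgctatcg
SpABE and SpCBE intergenic guide: ttgactgcacacaactgggc

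Libraries held 28101094 to 40687447 estimated counts. Mitochondrial transcripts took 0.94% to 1.19% of them. The line's identity was checked against 6 kidney and HEK293T markers, all of which averaged over 1 CPM (counts scaled by TMM to a common library total); VIM lay between 625 and 791 CPM. The blood marker HBB was at 0 in 17 libraries. Of 5 fibroblast markers only COL1A1 averaged over 1 CPM, and of 4 epithelial markers EPCAM and CDH1 did. The fibroblast sum moved with the groups, from 15.2 to 16.9 CPM in the SaABE NRF1 libraries against 18.2 to 20.9 CPM in the SaABE intergenic libraries, and 19.1 to 22.7 CPM in the others. The epithelial sum was 9.93 to 13.7 CPM in SaABE, 8.61 to 11.6 CPM in SpABE and 7.70 to 9.88 CPM in SpCBE. Within it, CDH1 fell by 0.34 on the log2 scale with the NRF1 guide (SE 0.06, edgeR adjusted p = 1.30e-04 over the 3 editors), and EPCAM was higher by 1.05 in SaABE than in SpCBE controls (SE 0.13, adjusted p = 5.35e-07). The sum of the kidney and HEK293T markers was 797 to 851 CPM in SaABE and 880 to 962 CPM in the other editors. Most of this sum was VIM (mean 712 CPM), while PAX2 and LHX1 averaged 2.04 and 3.56 CPM. VIM was lower in SaABE than in SpABE controls, by 0.22 (SE 0.03, adjusted p = 8.81e-07). In that comparison 3 of the 6 markers were higher, PAX2 among them (0.89, SE 0.18, adjusted p = 4.35e-04). The part of these markers in the results was not tested. NRF1 mRNA itself was higher with the NRF1 guide (log2 fold change 0.49, SE 0.04, edgeR adjusted p = 3.61e-09 over the 3 editors); a count per gene does not show exon 7.

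ATF5, a bZIP transcription factor that is controlled by translation like ATF4 and linked to mitochondrial stress, was higher with the NRF1 guide in each editor, the pattern it was chosen for. It lies at chr19:49928702-49933935 on the plus strand (ENSG00000169136.11, hg38, GENCODE 44). In SaABE it measured 50.0, 51.3 and 49.9 CPM in the NRF1-guide libraries, against 30.2, 28.6 and 28.9 CPM in the intergenic libraries. In SpABE it measured 50.4, 51.2 and 53.1 CPM in the NRF1-guide libraries, against 22.1, 21.0 and 22.4 CPM in the intergenic libraries. In SpCBE it measured 55.0, 50.0 and 53.2 CPM in the NRF1-guide libraries, against 23.2, 24.2 and 26.4 CPM in the intergenic libraries. All 9 NRF1-guide libraries lay above all 9 intergenic libraries, and the levels with the NRF1 guide were nearly alike in the 3 editors (group means 50.4, 51.6 and 52.8 CPM) while the controls were not. The log2 fold change was 0.79 (SE 0.05) in SaABE, 1.24 (SE 0.05) in SpABE and 1.11 (SE 0.05) in SpCBE, and 1.04 (SE 0.05), or 2.06-fold, over the 3 editors. In bulk RNA, more cells with a response and more RNA per cell cannot be told apart.

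NUP62, a subunit of the nuclear pore, runs on the opposite strand across the ATF5 start, and its exons cover 565 bases, or 19.5%, of the exonic bases of ATF5. The library kit marks strand, but the strand setting of the counting is not given in the sources used here, so reads in the shared bases may have been given to either gene. NUP62 was looked up because of this overlap. It moved against ATF5: 75.7, 82.2 and 79.0 CPM in the SaABE NRF1 libraries, against 134, 123 and 125 CPM in the SaABE intergenic libraries. The SpABE libraries held 86.3, 86.1 and 89.0 CPM with the NRF1 guide, against 138, 136 and 138 CPM with the intergenic guide. The SpCBE libraries held 85.6, 81.4 and 86.5 CPM with the NRF1 guide, against 146, 144 and 144 CPM with the intergenic guide. The 9 NRF1-guide libraries all lay below the 9 intergenic libraries, at a log2 fold change of -0.71 (SE 0.02, edgeR adjusted p = 8.25e-18). IL4I1, which shares 75 exonic bases with ATF5, stayed under 1 CPM in all 18 libraries.

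The promoter windows around these starts were searched for the NRF1 motif on both strands, because NRF1 is the factor whose exon was edited. Windows ran from 250 bases upstream to 50 bases downstream of each RefSeq start (GRCh38.p14). The motif was in 971 of 35116 windows (2.77%) and in 0 of the 17 windows matched to 9 members by symbol (all but NUPR1). The NUP62 window held it, at chr19:49929554-49929563, starting 59 bases upstream of the NUP62 start. The same match lay 349 bases downstream of an ATF5 start at 49929205, outside the ATF5 windows. The stretch around it is shown 5′ to 3′ on the minus strand (chr19:49929529-49929588), with the motif in capitals; the motif reads the same on both strands.
NUP62: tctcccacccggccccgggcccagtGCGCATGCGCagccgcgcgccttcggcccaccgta

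**Figure D1:**
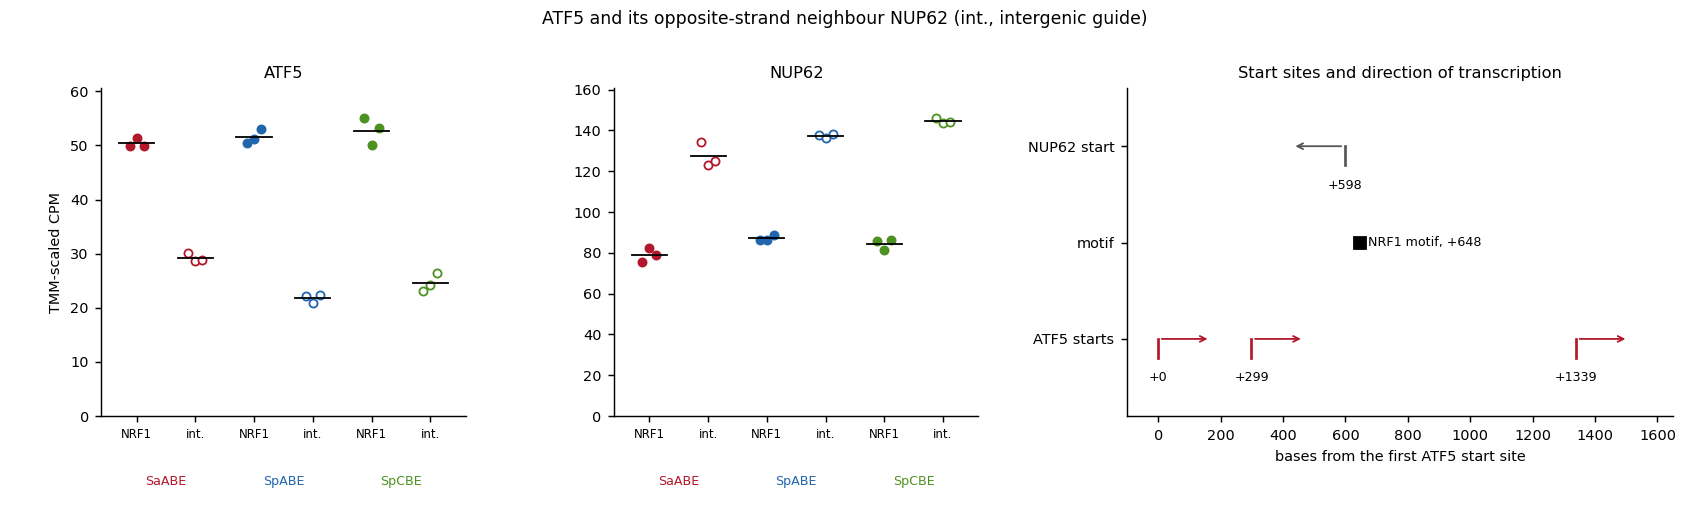
TMM-scaled CPM of ATF5 (left) and NUP62 (middle) in each of the 18 libraries, with the NRF1 guide filled and the intergenic guide (int.) open, a bar at each group mean, and (right) the RefSeq start sites of both genes with the NRF1 motif, in bases from the first ATF5 start. ATF5 sits at 49.9 to 55.0 CPM with the NRF1 guide and at 21.0 to 30.2 CPM with the intergenic guide, and the NUP62 points with the NRF1 guide lie under the open ones in each editor.

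ATF4, the central bZIP factor of the response (ENSG00000128272.14, chr22:39519695-39522683, plus strand), rose slightly in every editor. It measured 1050, 1034 and 1019 CPM in the SaABE NRF1 libraries, against 947, 922 and 922 CPM in the SaABE intergenic libraries. In SpABE it measured 935, 918 and 946 CPM with the NRF1 guide, against 802, 787 and 808 CPM with the intergenic guide. In SpCBE it measured 779, 748 and 785 CPM with the NRF1 guide, against 692, 695 and 711 CPM with the intergenic guide. Within each editor the guides did not overlap, and the SaABE intergenic libraries lay above all SpCBE libraries, with either guide. Its log2 fold change was 0.15 in SaABE (SE 0.02, edgeR adjusted p = 1.40e-05), 0.22 in SpABE (SE 0.02, adjusted p = 4.13e-08) and 0.14 in SpCBE (SE 0.02, adjusted p = 6.74e-05). The differences between these effects did not pass (adjusted p = 0.185, 0.881 and 0.123). Their 95% intervals, not adjusted for the number of genes, were -0.14 to 0.00 for SaABE minus SpABE, -0.06 to 0.09 for SaABE minus SpCBE and 0.01 to 0.16 for SpABE minus SpCBE. The processed copies ATF4P3 and ATF4P4, to which similar reads could have been given, were under 1 CPM in every library.

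Over the 3 editors, ATF4, DDIT3 and CHAC1 rose: 3 of the 8 members with a test passed as higher, where 20.6% of all tested genes did, and 0 as lower, where 18.8% did. "Passed" means an adjusted p under 0.05. The count of 3 became 5, with CEBPB and PPP1R15A or CEBPB and DDIT4, when SpCBE NRF1 replicate 2 or SaABE intergenic replicate 1 was left out, and TRIB3 passed as lower without SaABE NRF1 replicate 2 (adjusted p = 0.0497). In SaABE 4 members passed as higher (ATF4, DDIT3, CEBPG and PPP1R15A; 16.9% of all genes) and 0 as lower (15.5%). In SpABE 5 passed as higher (ATF4, DDIT3, CEBPB, CHAC1 and PPP1R15A; 15.4% of all genes) and 0 as lower (17.3%). In SpCBE ATF4 alone passed as higher (11% of all genes), and TRIB3 and PPP1R15A passed as lower (12%). The median log2 fold change of the 8 members was 0.10 in SaABE, 0.26 in SpABE and 0.01 in SpCBE, against medians of 0.01, 0.00 and 0.01 over all tested genes. The widest effect among them was that of DDIT3 in SpABE, a log2 fold change of 0.42. ATF4 was the only member with a test that passed in the same direction in all 3 editors.

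**Figure D2:**
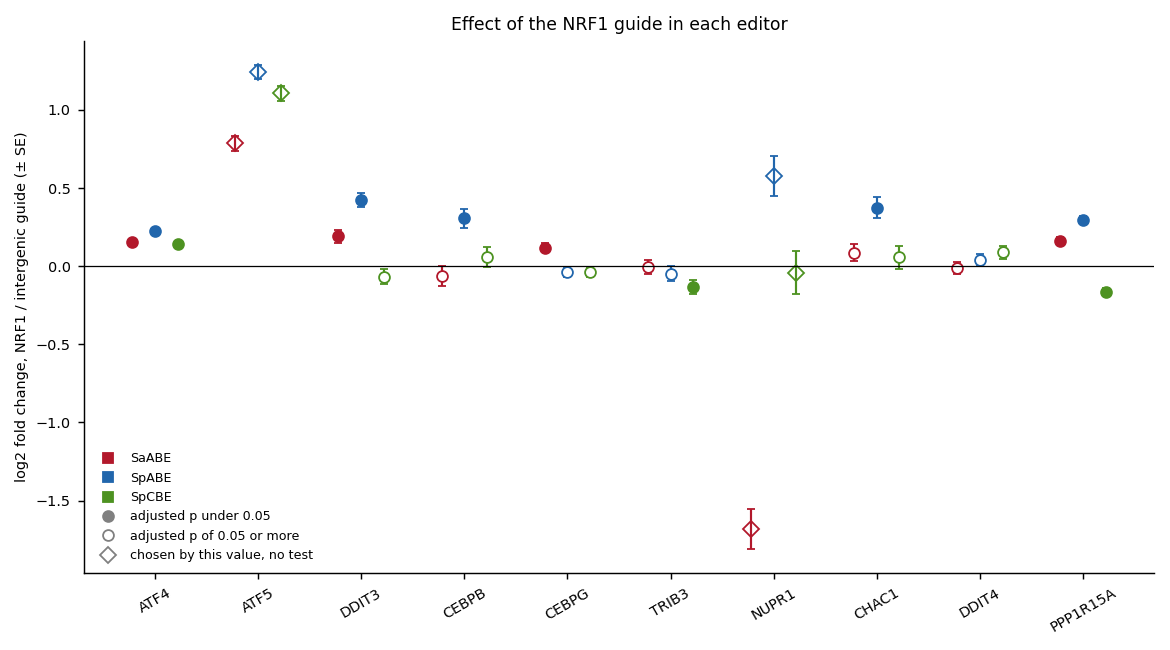
Log2 fold change of each member, NRF1 over intergenic guide, in SaABE, SpABE and SpCBE (3 against 3 libraries each), with the standard error as bars. Filled circles passed an adjusted p of 0.05, and diamonds mark ATF5 and NUPR1, which were chosen by these values; apart from those, the points lie between -0.17 and 0.42 on the log2 scale.

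DDIT3 encodes CHOP, the bZIP factor that promotes cell death when stress persists (ENSG00000175197.12, chr12:57516588-57521737, minus strand). It measured 98.0, 109 and 93.9 CPM in the SaABE NRF1 libraries, against 86.2, 89.6 and 87.3 CPM in the SaABE intergenic libraries. Levels in SpABE were 69.2, 70.7 and 68.4 CPM with the NRF1 guide, against 53.1, 51.5 and 50.7 CPM with the intergenic guide. Levels in SpCBE were 36.4, 35.3 and 35.8 CPM with the NRF1 guide, against 39.3, 36.9 and 36.4 CPM with the intergenic guide. DDIT3 thus rose in the adenine editors, by 0.19 in SaABE (SE 0.04, edgeR adjusted p = 7.84e-04) and 0.42 in SpABE (SE 0.04, adjusted p = 3.13e-08), and did not pass in SpCBE (-0.07, SE 0.05, adjusted p = 0.360). The SpABE effect exceeded that of SpCBE by 0.49 (SE 0.06, adjusted p = 2.15e-05), and SaABE minus SpABE was -0.23 (SE 0.06, adjusted p = 0.0133). The SaABE effect exceeded that of SpCBE by 0.26 (SE 0.06, adjusted p = 0.0191); this call was lost without SpCBE NRF1 replicate 2 or 3 or SpCBE intergenic replicate 1, with adjusted p of 0.0536 to 0.0802. DDIT3 shares 355 exonic bases (27.2%) with MARS1, a tRNA synthetase gene, on the opposite strand. MARS1 did not pass over the 3 editors (0.03, SE 0.02, adjusted p = 0.317) but moved by editor. It fell by 0.07 in SpABE (SE 0.03, adjusted p = 0.0491) and rose by 0.08 in SpCBE (SE 0.03, adjusted p = 0.0150), with 0.06 in SaABE (SE 0.03, adjusted p = 0.0549). Its sign was opposite to that of DDIT3 in SpABE and SpCBE and the same in SaABE. The MARS1 effect differed by -0.15 for SpABE minus SpCBE (SE 0.04, adjusted p = 0.00797) and by 0.13 for SaABE minus SpABE (SE 0.04, adjusted p = 0.0191). For SaABE minus SpCBE it did not (-0.02, SE 0.04, adjusted p = 0.825). DDIT3 also shares 58 bases with MBD6 (opposite strand), which fell by 0.21 (SE 0.04, adjusted p = 3.09e-05). On its own strand DDIT3 shares 105 exonic bases (8.0%) with another protein-coding gene, ENSG00000285133. Reads in those bases may have been given to either gene, and their part in the DDIT3 values was not tested.

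PPP1R15A encodes GADD34, which brings protein phosphatase to eIF2 (ENSG00000087074.8, chr19:48872212-48876059, plus strand). It measured 255, 257 and 248 CPM in the SaABE NRF1 libraries, against 224, 225 and 232 CPM in the SaABE intergenic libraries. In SpABE it measured 287, 282 and 287 CPM with the NRF1 guide, against 231, 233 and 233 CPM with the intergenic guide. In SpCBE it measured 164, 162 and 169 CPM with the NRF1 guide, against 184, 188 and 183 CPM with the intergenic guide. The groups did not overlap in any editor, and the direction turned: it rose by 0.16 in SaABE (SE 0.02, edgeR adjusted p = 1.91e-05) and 0.30 in SpABE (SE 0.02, adjusted p = 6.62e-10), and fell by 0.17 in SpCBE (SE 0.03, adjusted p = 1.67e-05). The SpABE effect exceeded that of SpCBE by 0.46 (SE 0.03, adjusted p = 5.14e-09), the SaABE effect exceeded that of SpCBE by 0.33 (SE 0.04, adjusted p = 2.61e-06), and SaABE minus SpABE was -0.14 (SE 0.03, adjusted p = 0.0115). The fit over the 3 editors, which averages these, gave 0.10 (SE 0.04, adjusted p = 0.0730); it passed when any of the 6 SpCBE libraries was left out, with adjusted p of 0.0216 to 0.0427.

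CHAC1, a glutathione-degrading enzyme among the most responsive ATF4 targets (ENSG00000128965.13, chr15:40952962-40956512, plus strand), rose with the NRF1 guide in SpABE. It measured 65.1, 74.9 and 60.8 CPM in the SaABE NRF1 libraries, against 66.5, 59.9 and 62.1 CPM in the SaABE intergenic libraries. SpABE gave 25.2, 25.1 and 24.4 CPM with the NRF1 guide, against 19.0, 19.1 and 19.6 CPM with the intergenic guide. SpCBE gave 18.7, 18.5 and 16.5 CPM with the NRF1 guide, against 17.4, 17.8 and 16.4 CPM with the intergenic guide. Only in SpABE did the guides not overlap (log2 fold change 0.37, SE 0.07, edgeR adjusted p = 1.15e-04); SaABE gave 0.09 (SE 0.06, adjusted p = 0.253) and SpCBE 0.06 (SE 0.07, adjusted p = 0.644). SaABE passed without its NRF1 replicate 3, the lowest of that group (adjusted p = 0.0402). The SpABE effect differed from that of SpCBE by 0.32 (SE 0.10, adjusted p = 0.0453), and the SaABE effect from that of SpABE by -0.29 (SE 0.09, adjusted p = 0.0340). These calls were lost in 12 and 8 of the 18 fits without a library, with adjusted p of up to 0.123 and 0.0978.

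ATF4 acts on DNA with a C/EBP partner at a composite site, the C/EBP-ATF response element, whose letters TGATGNAA were searched on both strands of the same promoter windows. A match was in 1270 of 35116 windows (3.62%) and in 2 of the 17 member windows, those of CHAC1 and CEBPG. They are shown 5′ to 3′ on the plus strand with the matched bases in capitals. The CHAC1 match (chr15:40953262-40953269, in the stretch chr15:40953237-40953294) starts 209 bases upstream of the start and reads on the opposite strand, and the CEBPG match (chr19:33374071-33374078, in the stretch chr19:33374046-33374103) starts 42 bases upstream and reads on the strand shown. A match describes the letters and is not evidence of binding.
CHAC1: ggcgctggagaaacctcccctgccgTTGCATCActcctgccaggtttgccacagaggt
CEBPG: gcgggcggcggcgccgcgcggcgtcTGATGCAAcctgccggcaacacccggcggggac

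CEBPG, a C/EBP factor that pairs with ATF4 (ENSG00000153879.9, chr19:33373685-33382686, plus strand), rose in SaABE. It measured 166, 167 and 162 CPM in the SaABE NRF1 libraries, against 149.8, 158 and 148 CPM in the SaABE intergenic libraries. The 3 NRF1-guide libraries lay above the 3 controls, at a log2 fold change of 0.12 (SE 0.03, edgeR adjusted p = 0.00390). In SpABE it ranged over 112 to 118 CPM with the NRF1 guide and 116 to 119 CPM with the intergenic guide, and in SpCBE over 106 to 111 CPM and 108 to 112 CPM, where the groups overlapped and the effects of -0.04 (adjusted p = 0.401) and -0.04 (adjusted p = 0.410) did not pass. The SaABE effect exceeded that of SpABE by 0.15 (SE 0.04, adjusted p = 0.0210) and that of SpCBE by 0.16 (SE 0.04, adjusted p = 0.0398). Leaving out a library ended the first call in 4 of 18 fits and the second in 12 of 18, with adjusted p of up to 0.0683 and 0.146.

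CEBPB, the C/EBP factor that joins several stress and inflammatory programmes (ENSG00000172216.5, chr20:50190830-50192668, plus strand), rose in SpABE. It measured 38.1, 39.0 and 36.4 CPM in the SpABE NRF1 libraries, against 28.4, 31.0 and 32.3 CPM in the SpABE intergenic libraries. This was a log2 fold change of 0.31 (SE 0.06, edgeR adjusted p = 2.66e-04), while SaABE gave -0.06 (SE 0.06, adjusted p = 0.491) and SpCBE 0.06 (SE 0.06, adjusted p = 0.574), with overlapping groups of 32.4 to 36.0 CPM with the NRF1 guide and 34.1 to 37.1 CPM with the intergenic guide in SaABE. SaABE minus SpABE was -0.37 (SE 0.09, adjusted p = 0.00627). The difference between SpABE and SpCBE, 0.25 (SE 0.09, adjusted p = 0.0763), did not pass, with an unadjusted 95% interval of 0.06 to 0.44. It passed without SpABE intergenic replicate 3 or SpCBE NRF1 replicate 1 (adjusted p of 0.00825 to 0.0450). CEBPB-AS1, on the opposite strand over 231 of its exonic bases, was under 1 CPM in every library.

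TRIB3, a pseudokinase that restrains ATF4 and CHOP (ENSG00000101255.11, chr20:362835-397559, plus strand), did not rise in any editor. In SpCBE it measured 39.9, 37.9 and 37.3 CPM with the NRF1 guide, against 41.2, 41.4 and 43.6 CPM with the intergenic guide, all below their controls. The log2 fold change of -0.13 there (SE 0.05, edgeR adjusted p = 0.0379) was lost without SpCBE NRF1 replicate 2 or 3 or any SpCBE intergenic library, with adjusted p of 0.0574 to 0.173. SaABE and SpABE gave -0.01 (adjusted p = 0.933) and -0.05 (adjusted p = 0.479). DDIT4, which encodes REDD1, an inhibitor of the growth kinase mTORC1 (ENSG00000168209.5, chr10:72273919-72276036, plus strand), did not pass in any editor: -0.01 in SaABE (adjusted p = 0.851), 0.04 in SpABE (adjusted p = 0.460) and 0.09 in SpCBE (adjusted p = 0.116). The SpCBE libraries held 102, 98.0 and 96.7 CPM with the NRF1 guide, against 95.8, 93.8 and 89.3 CPM with the intergenic guide, without overlap, and it passed there without SaABE intergenic replicate 1 (adjusted p = 0.0382).

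Between editors, 4 of the 5 passed differences of SaABE against SpABE were negative (DDIT3, CEBPB, CHAC1 and PPP1R15A) and CEBPG was positive, of 8 members tested, where 11.7% of all genes passed in either direction. For SaABE against SpCBE 3 of 8 passed, all positive (DDIT3, CEBPG and PPP1R15A; 4.09% of all genes), and for SpABE against SpCBE 3 of 8, all positive (DDIT3, CHAC1 and PPP1R15A; 8.96% of all genes). The count for SaABE against SpCBE was 1 (PPP1R15A) without SpCBE NRF1 replicate 2 or 3 or SpCBE intergenic replicate 1, and CEBPG was lost for SaABE against SpABE without SaABE intergenic replicate 3, SpABE NRF1 replicate 2 or 3 or SpABE intergenic replicate 2. ATF5, described without a test, differed by -0.46 (SE 0.07) for SaABE against SpABE, -0.32 (SE 0.07) for SaABE against SpCBE and 0.14 (SE 0.07) for SpABE against SpCBE.

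NUPR1, a small stress-induced chromatin protein, was the member with the widest spread, and it was chosen for this. It lies at chr16:28532708-28539008 on the minus strand (ENSG00000176046.8). It measured 3.37, 4.72 and 2.87 CPM in the SaABE NRF1 libraries, against 11.7, 11.0 and 12.1 CPM in the SaABE intergenic libraries. In SpABE it measured 6.13, 6.11 and 4.86 CPM with the NRF1 guide, against 3.62, 4.06 and 3.74 CPM with the intergenic guide. In SpCBE it measured 3.84, 3.49 and 3.66 CPM with the NRF1 guide, against 3.50, 4.28 and 3.47 CPM with the intergenic guide. The SaABE controls stood apart: they were the 3 highest of the 18 libraries, while the SaABE libraries with the NRF1 guide lay on both sides of the range of the SpCBE libraries. The log2 fold change was -1.68 (SE 0.13) in SaABE, 0.58 (SE 0.13) in SpABE and -0.04 (SE 0.14) in SpCBE. SaABE NRF1 replicate 2 was the highest of its group, and without it the SaABE value was -1.90. NUPR1 shares 909 exonic bases (16.5%) with an uncharacterised long non-coding RNA on the same strand, ENSG00000289754, so its counts may hold reads of that RNA.

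**Figure D3:**
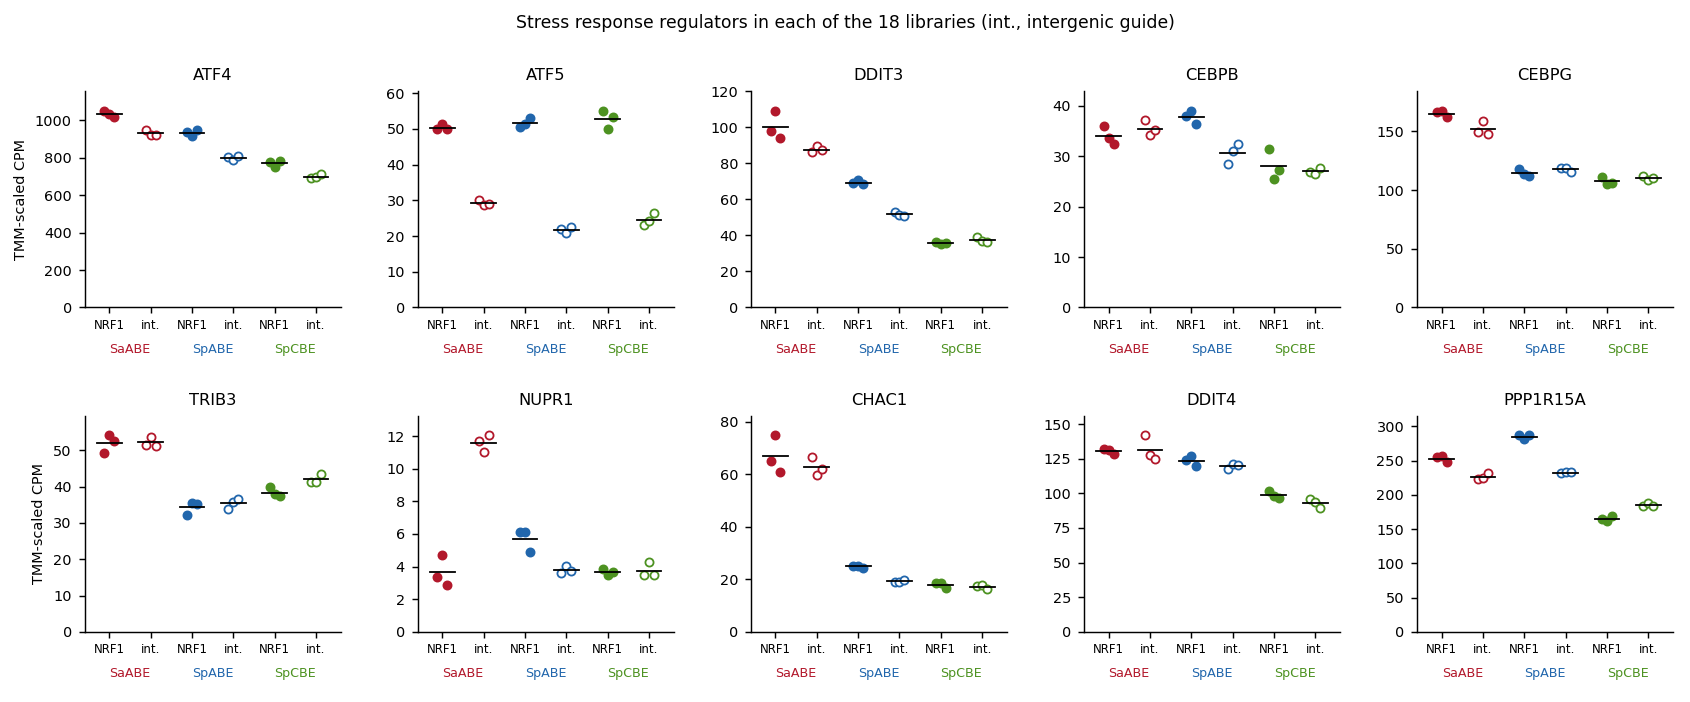
TMM-scaled CPM of the 10 members in each of the 18 libraries, from 0, with the NRF1 guide filled, the intergenic guide (int.) open and a bar at each group mean. ATF5 separates by guide in all 3 editors, ATF4, DDIT3 and CHAC1 step down across the editors, and NUPR1 is highest in the SaABE intergenic libraries, at 11.0 to 12.1 CPM.

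The intergenic controls show how the members stood in each editor without the NRF1 guide. SaABE controls had the highest levels of most members. Against SpABE controls, 7 of 8 members with a test were higher (19.3% of all genes) and 0 lower (19.1%), and 3 of them by more than 0.5 log2 units (3.58% of all genes): CHAC1 by 1.71 (SE 0.06, edgeR adjusted p = 4.45e-16), DDIT3 by 0.76 (SE 0.04, adjusted p = 1.71e-12) and TRIB3 by 0.56 (SE 0.05, adjusted p = 9.53e-10). PPP1R15A did not pass (-0.04, SE 0.02, adjusted p = 0.267). Against SpCBE controls, 8 of 8 were higher (20.1% of all genes) and 0 lower (20.6%), and 3 by more than 0.5 (3.8% of all genes): CHAC1 by 1.87 (SE 0.06, adjusted p = 3.53e-17), DDIT3 by 1.23 (SE 0.04, adjusted p = 1.45e-16) and DDIT4 by 0.501 (SE 0.04, adjusted p = 2.90e-10). The DDIT4 value ranged from 0.44 to 0.54 with a library left out, so it was not past 0.5 in every fit. Between the S. pyogenes editors, SpABE controls were higher for 6 of 8 (17.7% of all genes) and lower for TRIB3 (17.8%), with 0 past 0.5 (2.66% of all genes); the largest was DDIT3, at 0.46 (SE 0.05, adjusted p = 3.44e-08). Without SpABE intergenic replicate 1 the CEBPB difference of SaABE and SpABE controls was lost (adjusted p = 0.0545), and without SaABE intergenic replicate 1 that of DDIT4 (adjusted p = 0.0841). Between SpABE and SpCBE controls, CEBPB was lost without SpABE intergenic replicate 2 or 3 or SpCBE intergenic replicate 2 (adjusted p of 0.0710 to 0.0964) and CEBPG without SpABE intergenic replicate 1 or 2 or SpCBE intergenic replicate 2 (adjusted p of 0.0665 to 0.0742). The median difference of the 8 members was 0.30, 0.44 and 0.19 in these comparisons, against 0.00, -0.01 and 0.00 over all genes.

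CHAC1 averaged 62.8 ± 3.38 CPM in SaABE controls, 19.2 ± 0.31 CPM in SpABE controls and 17.2 ± 0.711 CPM in SpCBE controls (SD, n = 3 each), a 3.27-fold and a 3.65-fold difference for SaABE. DDIT3 averaged 87.7 ± 1.76, 51.8 ± 1.25 and 37.5 ± 1.54 CPM in the same order, so that all 3 controls were separated by more than the spread between libraries. NUPR1, again without a test, was 3.04-fold and 3.07-fold higher in SaABE controls, and 1.01-fold in SpABE against SpCBE controls. ATF5, whose control libraries also belong to the contrast it was chosen by, is likewise given without a test: its difference was 0.42 (SE 0.05) for SaABE minus SpABE controls, 0.25 (SE 0.05) for SaABE minus SpCBE controls and -0.17 (SE 0.05) for SpABE minus SpCBE controls. The share of counts taken by the 10 most abundant genes moved with the editor as well, at 5.86% to 6.05% in SaABE controls, 4.59% to 4.67% in SpABE controls and 3.86% to 3.90% in SpCBE controls. Its part in these differences was not tested, and nickase, guide and plasmid cannot be told apart in SaABE.

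**Figure D4:**
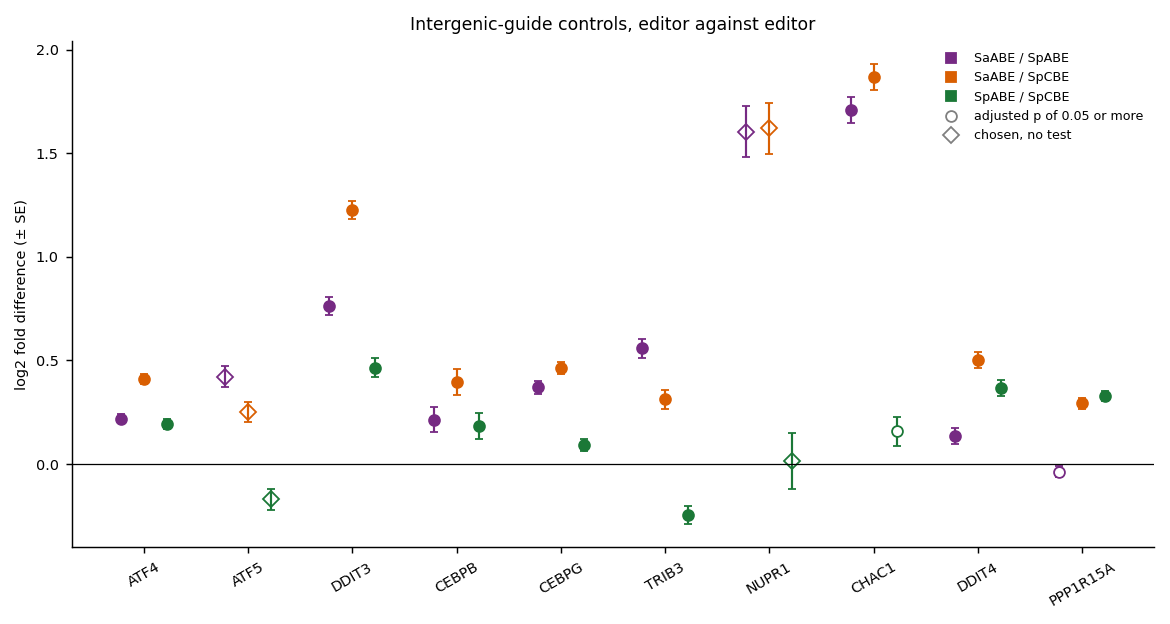
Log2 fold difference of each member between the intergenic controls of 2 editors (3 against 3 libraries), with the standard error as bars; diamonds mark ATF5 and NUPR1, which were chosen and not tested, and open circles did not pass. SaABE controls lie above SpABE and SpCBE controls for every member but PPP1R15A against SpABE, most of all for CHAC1 (1.71 and 1.87) and NUPR1 (1.60 and 1.62).

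The rest of the pathway was read from gene lists chosen with earlier results of these data known. Upstream, most eIF2 kinases and their activators or inhibitors did not pass. Of 10 genes, 2 rose and 1 fell over the 3 editors, shares near or under those of all genes (20.6% higher and 18.8% lower). IMPACT, which holds back the kinase GCN2, rose by 0.19 (SE 0.03, edgeR adjusted p = 6.09e-05) and PRKRA, an activator of the kinase PKR, by 0.13 (SE 0.03, adjusted p = 4.88e-04). DELE1, which carries mitochondrial stress signals to the kinase HRI, fell by 0.13 (SE 0.04, adjusted p = 0.00398). By editor, DELE1 fell by 0.26 in SaABE (adjusted p = 2.00e-04) and 0.15 in SpABE (adjusted p = 0.0136). It did not move in SpCBE (0.00, adjusted p = 0.993), and SaABE minus SpCBE was -0.26 (SE 0.07, adjusted p = 0.0284). PRKRA did not pass in SpCBE either (0.06, adjusted p = 0.341). The next by p, the kinase gene EIF2AK1 (HRI, -0.04, adjusted p = 0.0619) and the PERK inhibitor DNAJC3 (-0.06, adjusted p = 0.134), did not pass over the 3 editors. In single editors, EIF2AK1 fell by 0.09 in SpABE alone (SE 0.02, adjusted p = 0.00345). DNAJC3 fell by 0.22 in SpCBE alone (SE 0.04, adjusted p = 1.27e-04). That DNAJC3 effect differed from those of SaABE (adjusted p = 0.00974) and SpABE (adjusted p = 0.0103). Of 14 genes listed with eIF2, eIF2B and the phosphatase, EIF2A and EIF2D among them, 7 rose and 5 fell, against the same 20.6% and 18.8% of all genes. The eIF2B subunits EIF2B5 and EIF2B3, parts of the exchange factor that eIF2 phosphorylation blocks, fell by 0.35 (SE 0.03, adjusted p = 1.47e-10) and 0.21 (SE 0.04, adjusted p = 4.29e-05). The phosphatase subunit PPP1CB fell by 0.21 (SE 0.03, adjusted p = 1.14e-06), while EIF2A, an alternative initiator-tRNA factor, rose by 0.21 (SE 0.02, adjusted p = 1.61e-07) and the eIF2 subunit EIF2S3 by 0.14 (SE 0.02, adjusted p = 8.70e-06). No gene of this list went past 0.5 over the 3 editors. By editor, EIF2B3 did not pass in SpCBE (-0.10, adjusted p = 0.125) and EIF2S3 did not in SpABE (0.05, adjusted p = 0.158). The SpABE and SpCBE effects differed for both (adjusted p = 0.0296 and 0.0233).

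Downstream, 15 of 35 known ATF4 and CHOP target genes rose over the 3 editors and 0 fell, with a median log2 fold change of 0.07 against 0.01 over all genes; the shares for all genes were given above. No rise went past 0.21. MTHFD2, of mitochondrial one-carbon metabolism, rose by 0.20 (SE 0.02, edgeR adjusted p = 7.85e-09). PSAT1, of serine synthesis, rose by 0.18 (SE 0.02, adjusted p = 4.43e-08), and ASNS, the asparagine synthetase, by 0.18 (SE 0.02, adjusted p = 3.76e-07). The glutamine carrier SLC1A5 rose by 0.15 (SE 0.02, adjusted p = 2.05e-06), and EIF4EBP1, a repressor of cap-dependent translation, by 0.21 (SE 0.03, adjusted p = 7.07e-06). Counted by editor, 12 rose and 2 fell in SaABE (median 0.07), against 16.9% and 15.5% of all genes. In SpABE 16 rose and 5 fell (median 0.10), against 15.4% and 17.3% of all genes. In SpCBE 14 rose and 1 fell (median 0.07), against 11% and 12% of all genes. The effects of SaABE and SpABE differed for 13 of the 35 (4 positive and 9 negative; 11.7% of all genes), those of SaABE and SpCBE for 2 (4.09% of all genes), and those of SpABE and SpCBE for 10 (8.96% of all genes). The first 4 of these genes passed in all 3 editors, and EIF4EBP1 in SpABE and SpCBE.

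The other bZIP factors, partners and rivals of ATF4 for DNA, were counted by editor too. Of 25 genes, 11 rose and 2 fell in SpABE (15.4% and 17.3% of all genes), 7 rose and 4 fell in SaABE (16.9% and 15.5%), and 2 rose and 6 fell in SpCBE (11% and 12%). The effects of SpABE and SpCBE differed for 8 of the 25, all positive (8.96% of all genes in either direction). CREB3 rose in each editor, by 0.15 to 0.17, and ATF1 by 0.09 to 0.25. NFE2L1 rose by 0.29 in SpABE (edgeR adjusted p = 2.61e-08) and 0.09 in SaABE (adjusted p = 0.0214) but gave 0.04 in SpCBE (adjusted p = 0.390). XBP1, the spliced factor of the endoplasmic reticulum (ER) response, rose by 0.40 in SpABE (adjusted p = 1.95e-09) and 0.12 in SaABE (adjusted p = 0.00785), against 0.03 in SpCBE (adjusted p = 0.581). The difference of the SaABE and SpCBE effects did not pass for NFE2L1 (adjusted p = 0.568) or XBP1 (adjusted p = 0.332). FOS, an immediate early factor, rose by 0.70 in SpABE (SE 0.05, adjusted p = 6.61e-12) and 0.26 in SaABE (SE 0.05, adjusted p = 1.57e-04), and fell by 0.24 in SpCBE (SE 0.06, adjusted p = 0.00441).

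The other arms of the ER stress response also differed between editors. Of 12 genes, 5 rose and 0 fell in SpABE (15.4% and 17.3% of all genes), 2 rose and 2 fell in SaABE (16.9% and 15.5%), and 0 rose and 6 fell in SpCBE (11% and 12%). The difference of the SpABE and SpCBE effects passed for 7 of 12, all positive (8.96% of all genes in either direction). The folding enzyme PDIA4 fell by 0.15 in SpCBE (edgeR adjusted p = 4.50e-05) and 0.14 in SaABE (adjusted p = 5.65e-05), against -0.03 in SpABE (adjusted p = 0.303), and CRELD2 fell by 0.15 in each of the same editors (adjusted p = 0.0477 in SpCBE and 0.0442 in SaABE). MANF, a secreted survival factor, rose by 0.20 in SpABE (adjusted p = 1.58e-06), as did the stress sensor ERN1 (0.20, adjusted p = 0.00107) and the degradation adaptor SEL1L (0.18, adjusted p = 1.80e-04), and none of these passed in SaABE or SpCBE. The SpABE effect differed from those of SaABE and SpCBE for MANF (adjusted p = 0.00243 and 8.12e-04). That difference did not pass for ERN1 (adjusted p = 0.293 and 0.0506), SEL1L (adjusted p = 0.0657 and 0.0655) or CRELD2 (adjusted p = 0.724 and 0.706). In the intergenic controls, 11 of the 12 were higher in SaABE than in SpABE (19.3% of all genes) and 1 was lower (19.1%). Of 13 genes of the mitochondrial unfolded protein response, with which ATF5 is linked, 5 rose and 4 fell over the 3 editors (20.6% and 18.8% of all genes). SPG7, a mitochondrial protease subunit, fell by 0.72 (SE 0.05, adjusted p = 2.82e-12), and by 0.58 to 0.95 in the separate editors. The chaperones DNAJA3 (0.12, adjusted p = 3.67e-06) and HSPD1 (0.12, adjusted p = 3.72e-04) and the proteases YME1L1 (0.13, adjusted p = 9.62e-06) and HTRA2 (0.12, adjusted p = 5.11e-04) rose over the 3 editors. DNAJA3 passed in each editor, HSPD1 in SaABE and SpCBE, YME1L1 in SaABE and SpABE, and HTRA2 in SpABE alone. The HSPD1 effect differed between SaABE and SpABE (adjusted p = 0.0205).

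**Figure D5:**
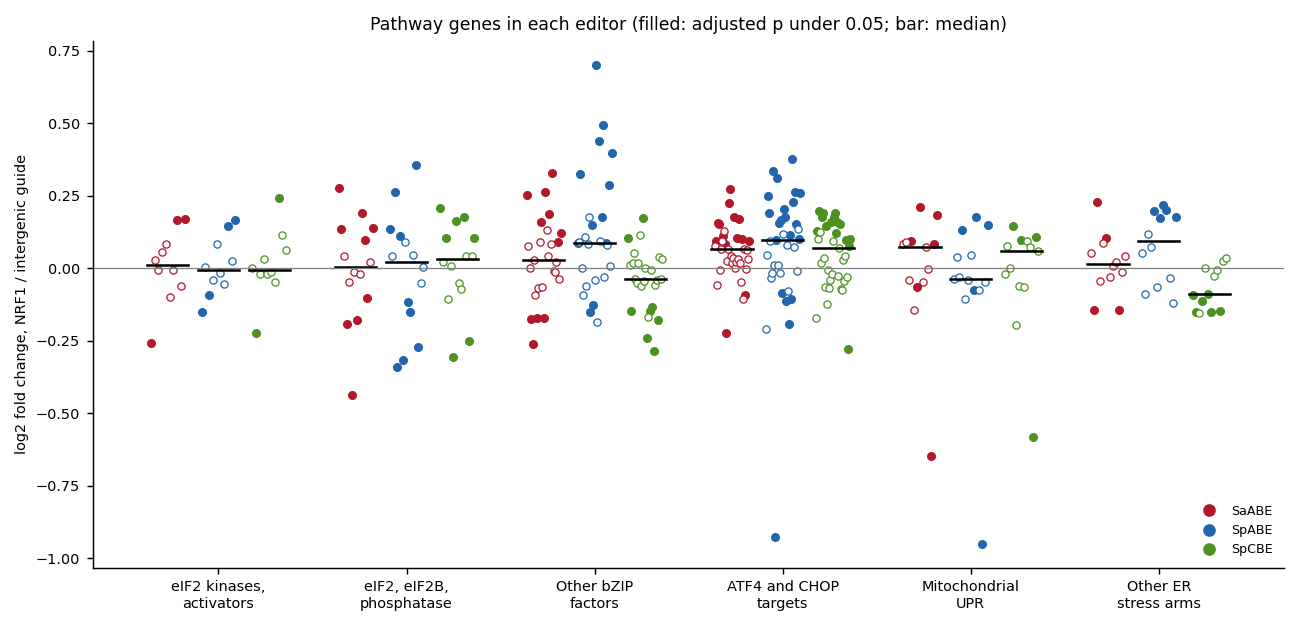
Log2 fold change, NRF1 over intergenic guide, of every tested gene of the 6 pathway lists (UPR, unfolded protein response), by editor, with a bar at the median and filled points for an adjusted p under 0.05. ATF4 and CHOP targets have medians of 0.07, 0.10 and 0.07 in the 3 editors, and the other ER stress arms lie higher in SpABE than in SpCBE.

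ATF5 and NUPR1 were set against 11179 genes with a mean of at least 5 CPM by Pearson's r of log2 CPM over the 18 libraries, as a description; libraries of a group share editor and guide. The genes most like ATF5 were RCBTB2 (r = 0.979), MRPL54 (0.972), TMEM143 (0.968), AK9 (0.963) and BCL2L12 (0.960), all higher with the NRF1 guide in every editor. Since ATF5 separates by guide, that pattern follows from picking genes by their r with it. MRPL54, a mitochondrial ribosomal protein, averaged 49.2 ± 1.58, 46.8 ± 0.616 and 46.9 ± 1.93 CPM with the NRF1 guide in SaABE, SpABE and SpCBE, against 25.6 ± 1.06, 24.8 ± 1.39 and 24.6 ± 0.83 CPM with the intergenic guide (SD, n = 3 each). The genes most like NUPR1 were YWHAE (0.872), GATA2 (0.853), DYRK1B (0.818), MT-CO2 (0.813) and RBPMS2 (0.807). Each had its highest group mean in the SaABE intergenic libraries, as NUPR1 did, which the choice by r favours. YWHAE, a 14-3-3 protein, averaged 1302 ± 21.4 CPM in the SaABE NRF1 libraries and 1635 ± 15.4 CPM in the SaABE intergenic libraries (SD, n = 3 each).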

How the data were processed

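The values are estimated counts for each gene, deposited by the authors without normalization; 19.63% of nonzero values were not whole, and all were rounded. Per the study's methods and the submitters' processing notes, reads from a stranded kit were trimmed (Cutadapt 1.18) and mapped to hg38 with GENCODE 30 (STAR 2.7.0f); DESeq2 1.46.0 is also named. Not given in the sources used here are the counting program, its strand setting and its handling of multiply matching reads. A further 18 columns of samples were not used.

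After filterByExpr and TMM scaling, genes were tested with the quasi-likelihood test of edgeR 4.0.16 (R 4.3.3), and p-values were adjusted by Benjamini-Hochberg over 17743 genes. The fit over 3 editors had an editor term, and other comparisons came from 6 group means over 18 libraries (biological coefficient of variation 3.1%). Fold changes are log2. The 95% intervals used 12 residual degrees of freedom and were not adjusted for the number of genes. Alternatives were other scaling, DESeq2 1.42.0, filters, no rounding, a replicate block, fewer libraries and each library left out; steps were checked on simulated data. All libraries of a group differed beyond sampling noise.

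Members and lists were chosen with earlier results of these data known. Every member is named, and from each list the up to 5 tested genes with the smallest p over the 3 editors, and the 5 genes with the highest r to ATF5 and to NUPR1. NUP62, IL4I1, MARS1, MBD6, CEBPB-AS1, the ATF4 copies and NRF1 were added after the data were seen. Coordinates are from GENCODE 44, and promoters from RefSeq (GRCh38.p14). The list of blood markers is not reported here in full.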

Additional observations from a re-analysis of the deposited data

Results flagged for a closer look

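With 8 members tested in each of 3 pairs of editors, the response to the NRF1 guide differed in 11 comparisons. A further 1, of NUPR1, was flagged and not tested. Of all genes, 11.7% passed in either direction for SaABE minus SpABE, 4.09% for SaABE minus SpCBE and 8.96% for SpABE minus SpCBE. The values below are differences of log2 fold changes from edgeR's quasi-likelihood test, with adjusted p over 17743 genes. DDIT3 differed in all 3 pairs of editors: -0.23 for SaABE minus SpABE (adjusted p = 0.0133), 0.26 for SaABE minus SpCBE (adjusted p = 0.0191) and 0.49 for SpABE minus SpCBE (adjusted p = 2.15e-05). So did PPP1R15A, at -0.14 (adjusted p = 0.0115), 0.33 (adjusted p = 2.61e-06) and 0.46 (adjusted p = 5.14e-09) for the same pairs. CEBPG differed by 0.15 for SaABE minus SpABE (adjusted p = 0.0210) and 0.16 for SaABE minus SpCBE (adjusted p = 0.0398). CHAC1 differed by -0.29 for SaABE minus SpABE (adjusted p = 0.0340) and 0.32 for SpABE minus SpCBE (adjusted p = 0.0453), and CEBPB by -0.37 for SaABE minus SpABE (adjusted p = 0.00627). Several of these calls were lost in some of the 18 fits that left out 1 library. For SaABE minus SpABE, CEBPG was lost in 4 fits and CHAC1 in 8. For SaABE minus SpCBE, CEBPG was lost in 12 and DDIT3 in 3, and for SpABE minus SpCBE, CHAC1 in 12.

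For NUPR1, all SaABE libraries with the NRF1 guide lay below their controls and all SpABE libraries with the NRF1 guide lay above theirs, a difference of -2.26. It was not tested, since NUPR1 was chosen for it. No group was large enough to look for a library far from the others.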

How the results depend on the processing

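Of 670 member values under alternatives that kept all libraries of the comparison, 654 kept their direction and their side of the threshold, and under these the guide effects of ATF5 and NUPR1 kept their direction in each editor. Of members lower in SpCBE, 1 was left under DESeq2 and without a filter on low counts, where TRIB3 did not pass (adjusted p = 0.0513 and 0.0582). Over the 3 editors 5 members were higher without that filter, with CEBPB and PPP1R15A added, and 0 without an editor term, where the editors' levels enter the spread (3 were higher as reported). The CEBPG difference of SpABE and SpCBE was -0.0035 without the filter; the cause was not tested. Fits of the compared editors alone and no filter ended CEBPG for SaABE against SpCBE (adjusted p = 0.0908 and 0.0724), and DESeq2 passed ATF4 for SpABE against SpCBE (adjusted p = 0.0324).

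Leaving out each of the 18 libraries in turn gave 3 to 5 members higher and 0 to 1 lower over the 3 editors, 1 to 2 higher and 1 to 2 lower in SpCBE, 0 to 1 higher for the SaABE minus SpABE effects, and 1 to 3 for SaABE minus SpCBE effects. Values near 0 that changed sign ranged from -0.035 to 0.030 for TRIB3 and -0.048 to 0.045 for DDIT4 in SaABE, from -0.029 to 0.13 for CEBPB in SpCBE, from -0.0011 to 0.078 for TRIB3 and -0.088 to 0.0047 for DDIT4 in the SaABE minus SpABE effects, from -0.019 to 0.026 for ATF4 and -0.056 to 0.097 for CHAC1 in the SaABE minus SpCBE effects, and from -0.018 to 0.030 for CEBPG in the SpABE minus SpCBE effects. NUPR1, not tested, ranged from -0.085 to 0.077 in SpCBE and from -0.036 to 0.13 for SpABE minus SpCBE controls.

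Same-numbered libraries of the 2 guides did not all deviate together in any editor (correlations of -0.349 to 0.166 over 10023 genes), so the replicate number was not taken as a pairing. With it as a block, 68 of 70 member values kept their call; PPP1R15A for SaABE minus SpABE (-0.14, adjusted p = 0.0516) and CHAC1 for SpABE minus SpCBE (0.31, adjusted p = 0.0613) lost theirs. For SaABE minus SpCBE effects over all genes, 223 passed as higher and 242 as lower with the block, against 358 and 368 as reported; 216 were higher with those editors' libraries alone, and 159 to 590 with a library left out. Without an editor term 1416 genes were higher and 2035 lower, against 3660 and 3334. In SaABE 1951 were higher with its own libraries alone, against 3004. Without SpABE intergenic replicate 2, 738 were higher for SaABE minus SpABE effects, against 1130, and 511 lower for SpABE minus SpCBE effects, against 784.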
